A study of Mus musculus with 10 samples.

Results

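The axon guidance families read here are the semaphorins of classes 3 to 7 and their plexin receptors, the Eph receptors and their ephrin ligands, the Slits and their Robo receptors, and the netrins with the UNC5 receptors. They were taken by gene name from a table of RNA-seq counts, and names of pseudogenes were dropped. No measured value entered this choice, but it was made with earlier results of these data known. Of the 56748 rows of the table, 71 matched. Of these, 66 are genes of the families. The others are 3 antisense RNA genes named after Plxna4, Unc5cl, which is related to the UNC5 proteins but is not one of the netrin receptors, and Unc50, which shares only the start of its name and is kept in the counts because the name rule takes it. In all, 55 of the 71 rows, 54 of them family genes, held enough counts to be tested, among 14270 such genes in the table.

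The study compared cultured fat cells with and without an adipocyte deletion of Fam20c, a kinase of the secretory pathway. Control cultures came from mice of the genotype Fam20c-flox and Ad-Fam20c–KO cultures from mice of the genotype Fam20c-flox/Adipoq-Cre, with 5 libraries in each group. Both genotypes thus carry the floxed alleles, and only the KO group carries Cre, driven by the adiponectin promoter of adipocytes, so that an effect of Cre itself and the loss of Fam20c cannot be told apart. The methods describe the stromal vascular fraction of inguinal fat from male mice 6 to 8 weeks old, differentiated in culture for 6 to 8 days. That fraction also holds stromal, vascular and immune cells, in which this Cre is not expected to act. Whether the 5 libraries of a group came from separate mice was not stated, and p-values then measure only the spread between these libraries.

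Total counts ran from 18949106 to 26237825 per library, of which the 71 rows took 0.0862% to 0.115%. Fam20c itself was lower in the KO libraries, at 6.65 to 7.74 CPM (counts scaled to library size) against 8.86 to 11.9 CPM in control libraries. Markers of adipocytes summed to between 30982 and 34867 CPM, and markers of endothelial cells, stromal cells, pericytes and macrophages were also present in every library. Control library 4 and KO library 1 stood apart from the rest along the first principal component of all genes tested, at 21.7 and 24.2 against -14.8 to 8.59, and results that rest on them are given below with and without them. CPM values were scaled by edgeR's TMM method (trimmed mean of M values) and carry the SD over each group's 5 libraries. Where genes are compared with each other in level, CPM was divided by the summed exon length in kilobases.

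Axon guidance proteins were first known as attractants and repellents of growing nerve fibres. Semaphorins signal through plexins, the secreted class 3 members mostly with neuropilins as co-receptors, ephrins and Eph receptors are both bound to membranes and signal between touching cells, Slits act on Robo receptors, and netrins act on DCC, neogenin and the UNC5 receptors. The same families pattern blood vessels: ROBO4, UNC5B, PLXND1, EPHB4 and ephrin-B2 are known from endothelial cells, and many of the ligands are made by connective tissue cells around them.

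In the KO cultures most of these genes stayed near their control level, and a few were lower. Robo4, Sema7a, Sema3f and Ephb6 were lower in KO cultures at an adjusted p under 0.05, and no member was higher. These 4 of 55 compare with 1.86% of all genes tested that were lower at this limit, and the 0 higher members with 0.308% (2.17% in either direction). At an unadjusted p under 0.05, 14 members were lower, against 7.46% of all genes, and 0 were higher, against 4.43%. DESeq2 and limma voom also called 0 members higher, but this was not set against the share of all genes they called higher and is no result about the members. The 5 KO libraries lay wholly below the 5 control libraries for 6 members, Robo4, Sema7a, Sema3f, Epha2, Ntn1 and Sema6b, and wholly above them for 0, where 2.66% and 1.31% of all genes did so (3.97% together).

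The changes of the rest were small. The log2 fold change, KO over control, was below 0 for 40 of the 55 rows (72.7%), against 50.3% of all genes tested, and its median was -0.124 over the 55 rows and -0.000847 over all genes. It was under 0.1 in size for 18 rows, from 0.1 to under 0.25 for 19 and larger for 18. By family, the median was -0.0305 for 19 semaphorins, -0.162 for 9 plexins, -0.107 for 10 Eph receptors, -0.206 for 6 ephrins and -0.0908 for 3 Slits. It was -0.213 for 3 netrins and 0.0287 for the 3 rows of the UNC5 names, and the 2 Robo genes tested, at -1.65 and -0.31, lay far from each other. All 6 ephrins, all 3 netrins and 8 of the 9 plexins were below 0, but none of the 18 genes of these families passed the limit in the edgeR test, with 4 at an unadjusted p under 0.05. DESeq2 called 0 of them and limma voom called 1, Ntn1.

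**Figure D1:**
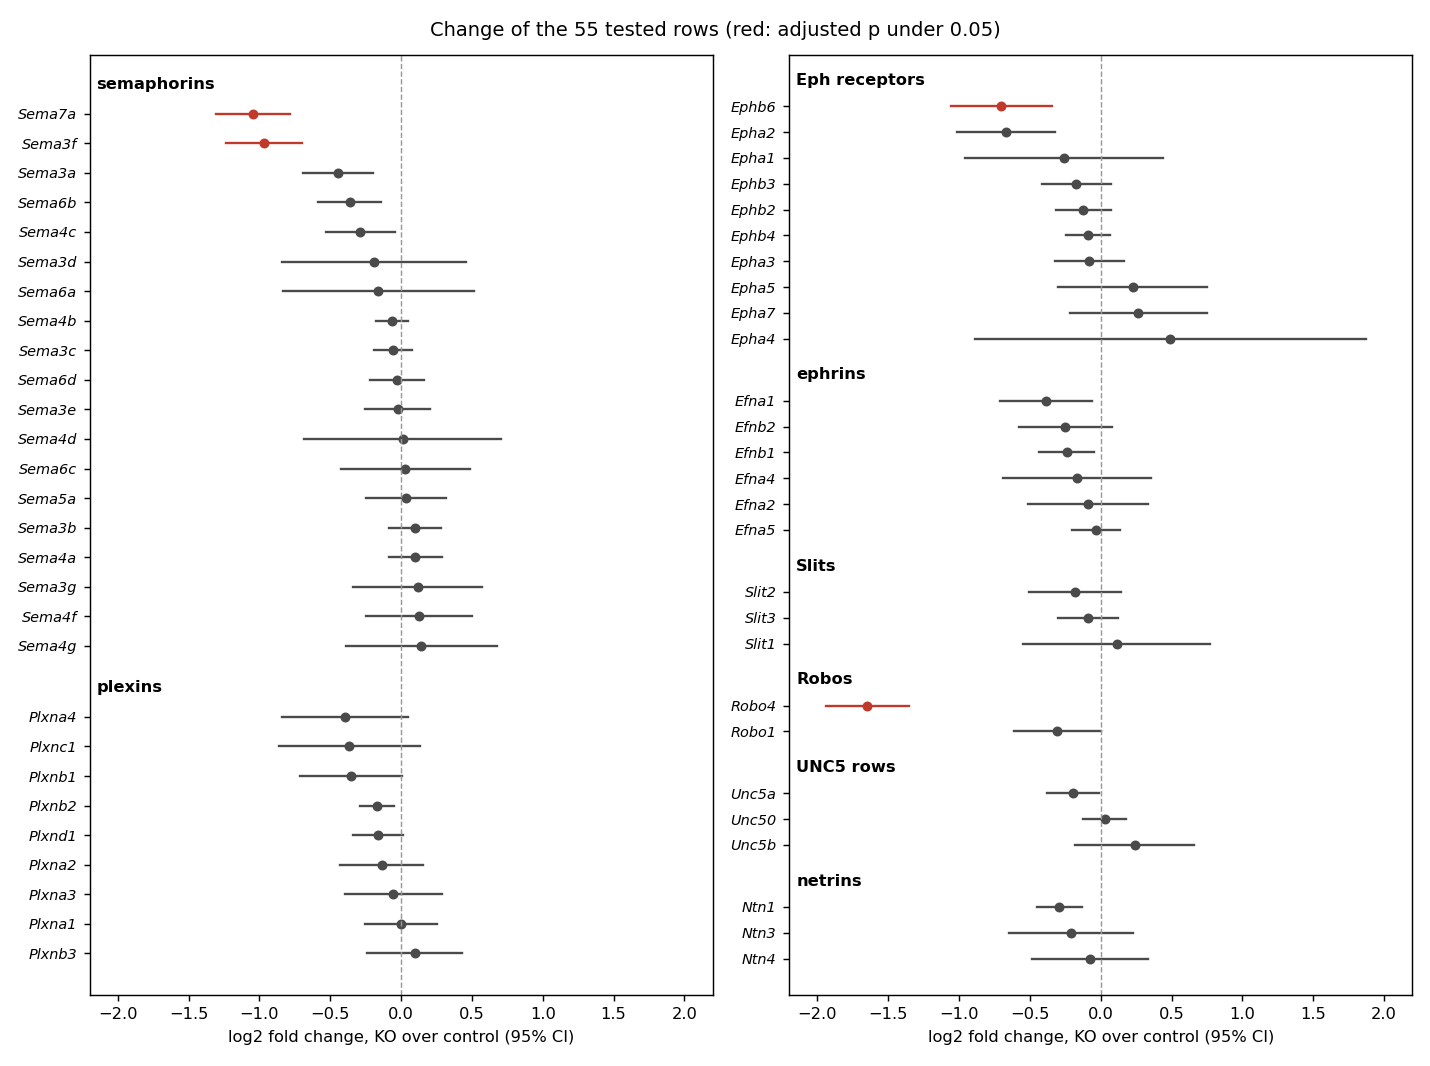
Log2 fold change of KO over control (horizontal axis) for the 55 tested rows, grouped by family, as points with 95% confidence intervals. The 4 red rows, Robo4, Sema7a, Sema3f and Ephb6, passed the adjusted limit and lie between -1.65 and -0.70, while most others have intervals that include 0.

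Robo4, the Robo receptor of endothelial cells, showed the largest change of the families. Control libraries 1 to 5 had 11.4, 10.9, 14.1, 13.1 and 11.5 CPM, and KO libraries 1 to 5 had 4.76, 4.57, 4.06, 2.93 and 3.05 CPM. The highest KO library was thus well under the lowest control library, and the KO mean was 0.319 of the control mean. Robo4 (ENSMUSG00000032125.22; chromosome 9, 37401897 to 37415115, plus strand, GRCm38) fell from 12.2 ± 1.32 to 3.87 ± 0.846 CPM (SD, n = 5), with a log2 fold change of -1.65 and a standard error (SE) of 0.135 (adjusted p = 5.3e-05 by the edgeR quasi-likelihood test, Benjamini-Hochberg adjusted). It passed the limit in each of the 10 fits that left out 1 library, between -1.73 and -1.56. In bulk RNA, fewer cells of a type and less RNA per cell cannot be told apart, and markers of endothelial cells were lower as well, with a summed level of 270.7 to 322.2 CPM in control and 124.2 to 173.7 CPM in KO libraries. Their part in the change of Robo4 was not tested.

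Robo1, a broadly expressed Slit receptor, was low in both groups. It had 1.73, 1.65, 1.98, 1.55 and 1.99 CPM in control and 1.24, 1.49, 1.27, 1.56 and 1.63 CPM in KO libraries, and the groups overlapped. Its log2 fold change of -0.31 (SE 0.142) did not pass the limit (adjusted p = 0.42 by the edgeR quasi-likelihood test, Benjamini-Hochberg adjusted). Robo2 and Robo3, with at most 8 and 5 counts in a library, were too low to be tested. The difference between Robo4 and Robo1 within each library, in log2 CPM, was 2.72 ± 0.195 in control and 1.36 ± 0.456 in KO cultures (SD, n = 5), a change of -1.36 (SE 0.222). Its values did not overlap between the groups. The 2-sided exact permutation test gave p = 0.00794, the smallest that 5 against 5 libraries allow. After adjustment over the 7 pairs of relatives compared, this test gave 0.0556. That is the lowest adjusted value a single separated pair can reach here. The adjusted test could thus not pass 0.05 for this pair alone, and missing the limit decides nothing.

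The promoters of the Robo genes are shown because Robo4 fell while Robo1 did not pass the limit, and those of Sema7a and Ephb6 because they also fell. The sequences are the 250 bases before the RefSeq start of each gene (GRCm38.p6), 5′ to 3′. Capitals mark CNGGAAG, a string around GGAA, the core bound by ETS factors, a family with many endothelial members. Both strands were searched for the whole string. GGAA outside it was neither marked nor counted, and it also stands, on one strand or the other, in the windows of Robo1 and Sema7a. No entry was matched for Sema3f. The window of Robo1 precedes a start inside the longer gene model used for its position. The windows of Robo4 and Ephb6 run past the first base of their gene models.
Robo4 promoter, chr9:37401722-37401971, plus strand: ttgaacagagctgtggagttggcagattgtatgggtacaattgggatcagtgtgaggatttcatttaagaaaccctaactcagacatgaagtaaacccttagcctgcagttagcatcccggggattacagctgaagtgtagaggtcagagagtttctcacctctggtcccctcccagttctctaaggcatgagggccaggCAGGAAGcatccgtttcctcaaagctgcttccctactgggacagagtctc
Robo1 promoter, chr16:72662899-72663148, plus strand: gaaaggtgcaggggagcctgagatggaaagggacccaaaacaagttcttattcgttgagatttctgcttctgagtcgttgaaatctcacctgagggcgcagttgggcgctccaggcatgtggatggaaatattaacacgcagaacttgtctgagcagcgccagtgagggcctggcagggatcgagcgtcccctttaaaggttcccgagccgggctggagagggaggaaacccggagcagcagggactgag
Sema7a promoter, chr9:57939862-57940111, plus strand: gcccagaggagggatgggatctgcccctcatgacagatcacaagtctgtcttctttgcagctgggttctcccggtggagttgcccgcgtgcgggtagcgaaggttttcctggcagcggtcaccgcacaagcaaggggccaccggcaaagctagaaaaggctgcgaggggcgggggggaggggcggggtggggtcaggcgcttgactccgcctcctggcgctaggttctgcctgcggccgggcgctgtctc
Ephb6 promoter, chr6:41605261-41605510, plus strand: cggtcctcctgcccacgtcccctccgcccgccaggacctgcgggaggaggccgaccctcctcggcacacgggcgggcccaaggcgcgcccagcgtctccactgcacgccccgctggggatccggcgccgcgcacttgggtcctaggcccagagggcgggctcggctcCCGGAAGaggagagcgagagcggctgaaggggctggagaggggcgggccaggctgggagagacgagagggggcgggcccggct

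The motif began at base -50 from the RefSeq start in Robo4 and at -83 in Ephb6, and these letters were not in the windows of Robo1 and Sema7a. In Robo4 it lies inside the gene model, and in Ephb6 before it. They stood in 26.6% of the 32851 promoters of the same length in the table and in 25 of the 75 promoters matched to 59 of the 71 rows (33.3%). AACAAT, a core bound by SOX factors, which does not overlap the other motif, was in none of the 4 sequences, in 3 of the 75 promoters and in 9.42% of all promoters. A match is only a match of letters.

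**Figure D2:**
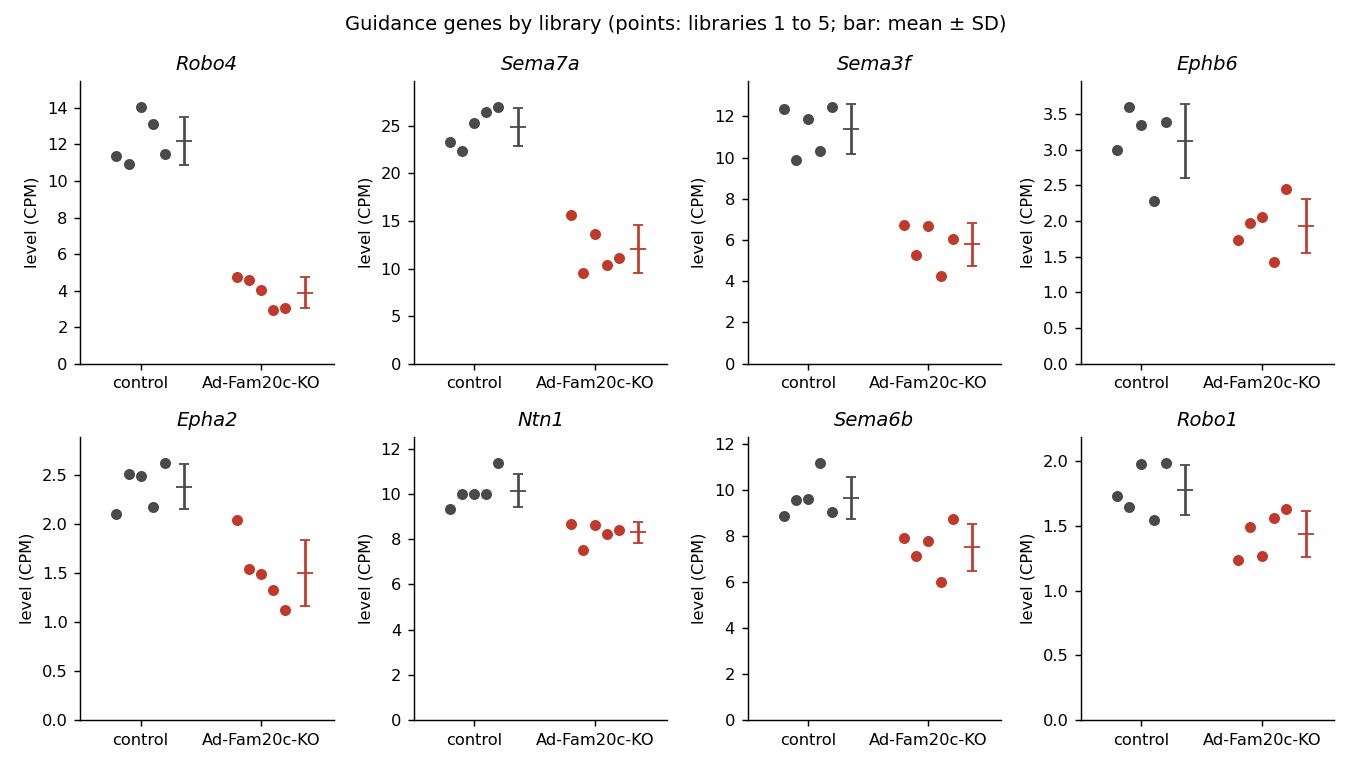
Level in CPM (vertical axes from 0) of 8 genes in the 5 control (grey) and 5 KO (red) libraries, drawn in library order, with mean ± SD beside them. Robo4, Sema7a, Sema3f, Epha2, Ntn1 and Sema6b do not overlap between the groups, while Ephb6 and Robo1 do.

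None of the 3 Slit ligands passed the limit, and none had an unadjusted p under 0.05 in the edgeR test. Slit3, which stromal cells make, had the highest level per exon length of all the family genes, at 33.3 ± 3.37 CPM per kilobase in control cultures (SD, n = 5). Its libraries had 212, 189.8, 174, 225 and 211 CPM in control and 203, 188, 145, 211 and 203 CPM in the KO cultures, so that all but 1 KO library lay within the control range. The log2 fold change was -0.09 (95% confidence interval -0.30 to 0.12; adjusted p = 0.817 by the edgeR quasi-likelihood test, Benjamini-Hochberg adjusted). Slit2, at 6.96 to 10.5 CPM in control and 5.70 to 9.16 CPM in KO libraries, had a log2 fold change of -0.18 (SE 0.149). Slit1 had 0.420 to 1.16 and 0.480 to 0.893 CPM, and a log2 fold change of 0.11 (SE 0.305). The difference between Slit2 and Slit3 moved by -0.094 (2-sided exact permutation test, p = 0.611).

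Among the semaphorins, Sema7a and Sema3f fell and 17 others did not pass the limit in the edgeR test. Sema7a, the membrane-anchored semaphorin of class 7, which acts on integrins and on PLXNC1, had 23.3, 22.3, 25.3, 26.4 and 27.0 CPM in control libraries and 15.7, 9.48, 13.7, 10.4 and 11.1 CPM in KO libraries. No KO library reached the control range. The mean fell from 24.9 ± 2.00 to 12.1 ± 2.55 CPM (SD, n = 5), to 0.484 of control, with a log2 fold change of -1.05 with an SE of 0.121 (adjusted p = 0.000555 by the edgeR quasi-likelihood test, Benjamini-Hochberg adjusted). Sema7a (ENSMUSG00000038264.9) lies on chromosome 9, 57940112 to 57962865, plus strand. Per exon length it was the second highest semaphorin in control cultures, at 7.55 ± 0.606 CPM per kilobase (SD, n = 5), behind Sema3g.

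Sema3f, a secreted class 3 semaphorin that acts through NRP2 and is known to repel endothelial cells, had 12.4, 9.86, 11.9, 10.3 and 12.5 CPM in control and 6.75, 5.27, 6.68, 4.26 and 6.06 CPM in KO libraries. The ranges were separated, with the lowest control library above the highest KO library. Sema3f (ENSMUSG00000034684.13; chromosome 9, 107681500 to 107710475, minus strand) fell from 11.4 ± 1.21 to 5.80 ± 1.05 CPM (SD, n = 5), to 0.511 of control, with a log2 fold change of -0.97 (SE 0.124, adjusted p = 0.000957 by the edgeR quasi-likelihood test, Benjamini-Hochberg adjusted). Like Robo4, both semaphorins passed in each of the 10 fits that left out 1 library. The 3 genes all lie on chromosome 9, which holds 5 of the 55 tested rows, at distances of many megabases. How many of all tested genes on this chromosome were lower was not counted, so their shared chromosome is no result. The other tested members there were Plxnb1 and Sema3b, with log2 fold changes of -0.36 and 0.10. Sema3b, at 107597674 to 107609229, is the tested member nearest to Sema3f.

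Next in the family came Sema3a and Sema6b, neither past the limit in the edgeR test. DESeq2's test called both lower, and limma voom called Sema3a but not Sema6b. Sema3a, a class 3 semaphorin that acts through NRP1, had 9.07, 9.34, 8.37, 6.48 and 8.03 CPM in control and 4.96, 6.89, 6.46, 6.09 and 5.85 CPM in KO libraries. Only control library 4 fell within the KO range. Its log2 fold change was -0.45 (SE 0.114, adjusted p = 0.0728 by the edgeR quasi-likelihood test, Benjamini-Hochberg adjusted), and -0.52 without control library 4, where it passed. Sema6b, a transmembrane semaphorin of class 6, had 8.86, 9.56, 9.59, 11.2 and 9.05 CPM in control and 7.89, 7.11, 7.77, 6.00 and 8.75 CPM in KO libraries, which do not overlap although KO library 5 came close. Its log2 fold change was -0.36 (SE 0.103, adjusted p = 0.111 by the edgeR quasi-likelihood test, Benjamini-Hochberg adjusted). The other 15 semaphorins tested had log2 fold changes from -0.29 in Sema4c to 0.14 in Sema4g.

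The receptors and co-receptors of these ligands did not pass the limit. Plxnc1, the plexin of Sema7a, had only 1.64 ± 0.371 CPM in control and 1.27 ± 0.393 CPM in the KO cultures (SD, n = 5), and its log2 fold change of -0.36 had a 95% confidence interval from -0.86 to 0.13. Nrp1, the co-receptor of Sema3a, had 98.6 to 111 CPM in control and 91.1 to 103 CPM in KO libraries, a log2 fold change of -0.08 (SE 0.0471). Nrp2, the co-receptor of Sema3f, had 45.2 to 58.3 and 46.4 to 55.1 CPM, a log2 fold change of 0.04 (adjusted p = 0.917 by the edgeR quasi-likelihood test, Benjamini-Hochberg adjusted). Its 95% confidence interval ran from -0.11 to 0.19, and the sign turned to -0.00209 without control library 2. Of the 9 plexins tested, none passed and 1 had an unadjusted p under 0.05.

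The most abundant plexins were Plxna1, Plxnd1 and Plxnb2, at 10.8 ± 1.72, 10.3 ± 0.968 and 9.25 ± 0.525 CPM per kilobase in control cultures (SD, n = 5), levels too close to be ordered against their spread. Plxnb2, the single plexin with an unadjusted p under 0.05, had 71.2, 65.7, 75.2, 69.6 and 75.4 CPM in control and 69.4, 60.2, 59.4, 66.1 and 62.3 CPM in KO libraries, a log2 fold change of -0.17 (SE 0.0548, adjusted p = 0.182 by the edgeR quasi-likelihood test, Benjamini-Hochberg adjusted). Plxnd1, the endothelial receptor of Sema3e, had 74.5, 68.5, 72.0, 86.9 and 72.5 CPM in control and 79.5, 62.2, 60.5, 63.0 and 69.4 CPM in KO libraries. In each group the highest value was that of the library that stands apart. The log2 fold change of Plxnd1 was -0.16 (SE 0.0813, adjusted p = 0.473 by the edgeR quasi-likelihood test, Benjamini-Hochberg adjusted), and it was -0.10 without control library 4, -0.23 without KO library 1 and -0.17 without both. Its ligand gene Sema3e, at 7.24 to 9.91 CPM in control and 6.94 to 9.28 CPM in KO libraries, had a log2 fold change of -0.03, with a sign that turned in some fits. Plxna1 had 84.7 to 123 and 73.0 to 108 CPM, and its log2 fold change of -0.00121 had no stable sign. Plxna1 overlaps Gm26811 on the opposite strand. The difference between Plxnd1 and Plxnb2 moved by 0.00552 (2-sided exact permutation test, p = 0.992).

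Among the Eph receptors, Ephb6 fell and Epha2 lay just outside the limit. Ephb6, a member whose kinase domain is inactive, had 2.99, 3.60, 3.34, 2.27 and 3.38 CPM in control and 1.74, 1.98, 2.05, 1.42 and 2.44 CPM in KO libraries. Control library 4 was below KO library 5, so the groups overlapped. Ephb6 (ENSMUSG00000029869.8; chromosome 6, 41605482 to 41620509, plus strand) fell from 3.12 ± 0.520 to 1.93 ± 0.380 CPM (SD, n = 5), with a log2 fold change of -0.70 with an SE of 0.165 (adjusted p = 0.0473 by the edgeR quasi-likelihood test, Benjamini-Hochberg adjusted). Its call was fragile: of the 10 fits that left out 1 library, it passed in 2, those without control library 4 and without KO library 5, with log2 fold changes from -0.80 to -0.61 over the 10. With the size factors of DESeq2 in place of TMM it did not pass either.

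Epha2, the receptor of ephrin-A1 in vessel and epithelial cells, had 2.10, 2.51, 2.49, 2.18 and 2.62 CPM in control and 2.03, 1.54, 1.48, 1.33 and 1.12 CPM in KO libraries. These did not overlap, although KO library 1 was close to the control range. Epha2 (chromosome 4, 141301240 to 141329384, plus strand) had a log2 fold change of -0.67 (SE 0.159, adjusted p = 0.0506 by the edgeR quasi-likelihood test, Benjamini-Hochberg adjusted), and it passed without KO library 1 (-0.79) and without control library 4 (-0.70). It also passed with DESeq2's test, limma voom, upper quartile factors and the stricter filter. With DESeq2 size factors, no filter or the replicate block, Epha2 did not pass. Its main ligand gene Efna1 had 2.10, 1.72, 2.68, 2.42 and 2.41 CPM in control and 1.98, 1.49, 1.88, 1.69 and 1.58 CPM in KO libraries, with overlap, and a log2 fold change of -0.39 (SE 0.150, adjusted p = 0.30 by the edgeR quasi-likelihood test, Benjamini-Hochberg adjusted). The values just inside and just outside the limit are thus those of Ephb6 and Epha2, which differ little in size and error.

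The pair known for marking veins and arteries, Ephb4 and its ligand Efnb2, did not change detectably. Ephb4 had the highest level of the Eph receptors, at 4.77 ± 0.458 CPM per kilobase in control cultures (SD, n = 5). It had 22.0, 18.7, 24.4, 23.2 and 22.4 CPM in control and 20.2, 22.7, 20.7, 20.6 and 19.5 CPM in KO libraries, within the control range throughout, and a log2 fold change of -0.09 with a 95% confidence interval from -0.25 to 0.07. It overlaps Zan on the opposite strand. Efnb2 had 6.14, 5.21, 5.13, 8.80 and 6.38 CPM in control and 6.60, 4.70, 4.93, 5.08 and 5.24 CPM in KO libraries, and a log2 fold change of -0.25 (SE 0.152, adjusted p = 0.585 by the edgeR quasi-likelihood test, Benjamini-Hochberg adjusted). Its highest values were again in the libraries that stand apart, and its log2 fold change was -0.10 without control library 4, -0.34 without KO library 1 and -0.19 without both. Efnb1, the most abundant ephrin at 6.44 ± 0.910 CPM per kilobase in control cultures (SD, n = 5), had 17.5 to 26.3 CPM in control and 17.4 to 19.7 CPM in KO libraries. Its log2 fold change was -0.24 (SE 0.0886, adjusted p = 0.258 by the edgeR quasi-likelihood test, Benjamini-Hochberg adjusted), and -0.31 without control library 4, its lowest control library, where it passed.

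The differences within the pairs of relatives were small here too. Ephb4 against Ephb2 moved by 0.037 (2-sided exact permutation test, p = 0.738), and Efnb2 against Efnb1 by -0.00185 (2-sided exact permutation test, p = 1), with SEs of 0.112 and 0.243. In the exact permutation tests of all pairs other than Robo4 and Robo1, p was 0.806 or 1 after adjustment over the 7 pairs. Ephb2, a receptor of the B ephrins outside endothelium too, had 10.4 to 13.2 CPM in control and 10.1 to 13.2 CPM in KO libraries. The other Eph receptors tested had log2 fold changes from -0.26 in Epha1 to 0.49 in Epha4. Epha8 and Epha10 had 0 counts in every library, which allows up to 0.158 CPM in the shallowest and 0.114 CPM in the deepest library at a limit of 3 counts.

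Of the netrins, Ntn1, the secreted ligand that gave the family its name, came nearest to the limit. It had 9.33, 10.0, 10.0, 10.0 and 11.4 CPM in control and 8.68, 7.51, 8.64, 8.25 and 8.40 CPM in KO libraries. The groups did not overlap, with a narrow gap and a small spread in each. Ntn1 (chromosome 11, 68209364 to 68400823, minus strand) had a log2 fold change of -0.29 (SE 0.074, adjusted p = 0.0703 by the edgeR quasi-likelihood test, Benjamini-Hochberg adjusted), and it passed in 0 of the 10 fits that left out 1 library. Ntn4, a netrin of basement membranes, had 1.57 to 2.49 CPM in control and 1.37 to 2.58 CPM in KO libraries, and its log2 fold change of -0.08 (SE 0.188) had no stable sign. The difference between Ntn4 and Ntn1 moved by 0.202 with an SE of 0.16 (2-sided exact permutation test, p = 0.23). Ntn3 shares exons with Tbc1d24 on the same strand, so its counts are uncertain.

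Of the netrin receptors, Unc5a, Unc5b and neogenin were measured, and Dcc had 0 counts in all 10 libraries. Unc5a had 16.5 to 20.0 CPM in control and 13.9 to 18.4 CPM in KO libraries, a log2 fold change of -0.20 (SE 0.0841, adjusted p = 0.364 by the edgeR quasi-likelihood test, Benjamini-Hochberg adjusted); it overlaps Hk3, a gene of myeloid cells, on the opposite strand, so its counts may include fragments of that gene. Unc5b, the UNC5 receptor of endothelial tip cells, had 10.9, 11.4, 12.1, 21.5 and 12.9 CPM in control and 22.6, 13.5, 13.4, 15.1 and 16.5 CPM in KO libraries. Control library 4 and KO library 1 were far above the rest of their groups. The log2 fold change of Unc5b was 0.24 (SE 0.194, adjusted p = 0.724 by the edgeR quasi-likelihood test, Benjamini-Hochberg adjusted), and it was 0.46 without control library 4, 0.09 without KO library 1 and 0.31 without both. Neogenin, Neo1, had 45.2 to 55.1 and 48.4 to 53.6 CPM and a log2 fold change of -0.01, with no stable sign. Unc5c and Unc5d had at most 10 and 1 counts in a library and were not tested.

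**Figure D3:**
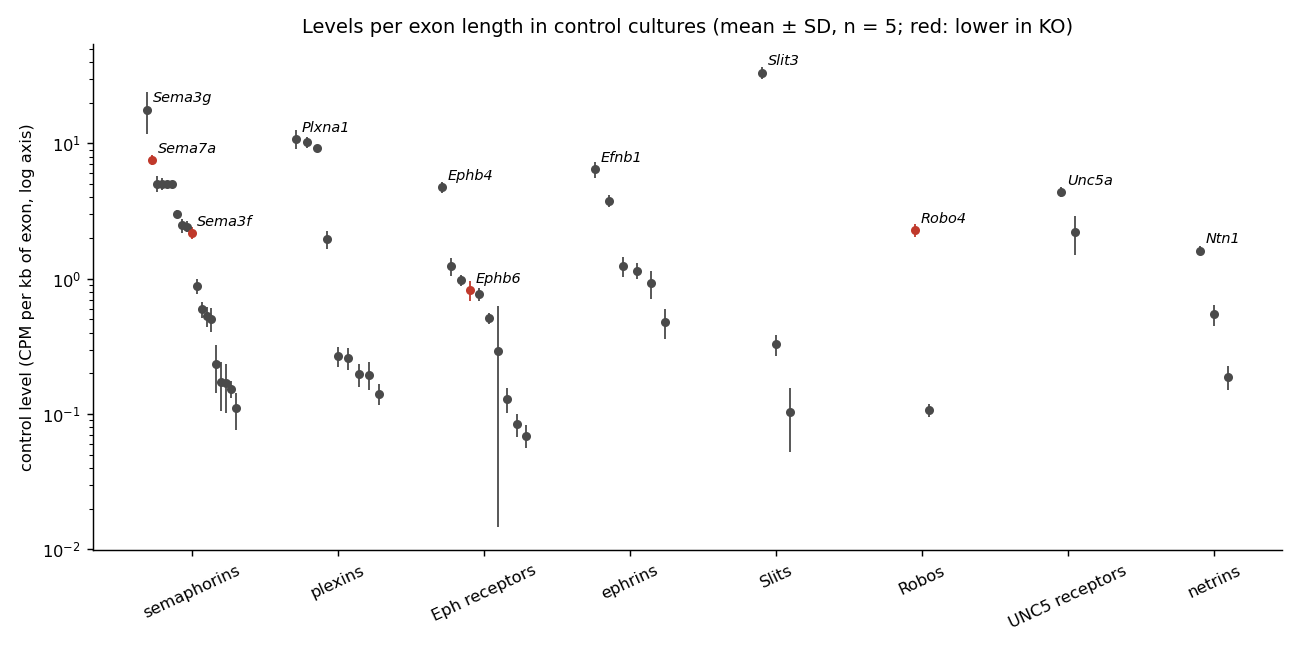
Control level in CPM per kilobase of exon (log axis) of the 54 tested family genes, sorted within each family, as mean ± SD over 5 libraries, with the highest gene of each family and the 4 genes lower in KO (red) named. Slit3 is highest at 33.3 and Sema3g second at 17.8, while 25 genes exceed 1 and 10 exceed 5.

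Among members known from endothelial cells, Robo4 alone passed the limit. Of 7 such genes (Robo4, Unc5b, Plxnd1, Ephb4, Efnb2, Efna1 and Sema3g), 1 was lower at the limit, against 1.86% of all genes tested, 2 were lower at an unadjusted p under 0.05, against 7.46%, and the median log2 fold change was -0.162. Their summed level was 187.9 to 284.7 CPM in control and 174.6 to 264.0 CPM in KO libraries, with overlap. Sema3g and Plxnd1, which averaged 80.8 and 74.9 CPM in control libraries, held most of this sum, so it says little of the other genes. Of 23 markers of endothelial cells outside the families, 20 were lower at the limit, against 1.86% of all genes tested. The median of the 23 was -1.22, and their summed levels, given beside Robo4, did not overlap between the groups. Cdh5 and Pecam1, the adhesion proteins that define endothelium, had log2 fold changes of -1.27 and -1.23, and 0 of the 23 markers fell further than Robo4. The nearest was Mmrn2 at -1.39. The markers that did not pass were Flt1, Vwf and Tek, at -0.48, -0.39 and -0.19. No endothelial marker was at 0 in all libraries. Their part in the changes of Sema7a, Sema3f and Ephb6 was not tested either.

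Markers of other cells were measured beside the families. Over all genes tested, 1.86% were lower and 0.308% higher at the limit, and 7.46% and 4.43% at an unadjusted p under 0.05. Of 11 stromal progenitor markers, 5 were lower (Pdgfra, Cd34, Lum, Col1a1 and Col3a1, named after their values were seen), with a median over the list of -0.383 and a summed level of 5043 to 6509 CPM in control and 4191 to 4978 CPM in KO libraries. Of 11 pericyte and smooth muscle markers, 9 were tested and 0 passed in edgeR, with 5 lower at an unadjusted p under 0.05. Their median was -0.35 and their sum 186.1 to 245.6 and 149.3 to 202.9 CPM. Of 10 adipocyte markers 0 passed, with 4 higher at an unadjusted p under 0.05, a median of 0.0832 and a sum of 30982 to 31966 against 32811 to 34867 CPM. Of 10 macrophage markers 0 passed, with 0 at an unadjusted p under 0.05 and a median of -0.0313. Their summed level was 1457 to 2248 CPM in control and 1286 to 2138 CPM in KO libraries. None of these markers was at 0 in all libraries. The stromal and adipocyte sums did not overlap between the groups, but a few genes held most of each. Col3a1 and Col1a1 averaged 2630 and 1406 CPM in control libraries, and Fabp4 averaged 20805 CPM. No adipocyte marker had separated groups on its own. The stromal markers that did not pass had log2 fold changes from -0.68 in Pi16 to 0.03 in Thy1. The part of these markers in the changes of the families was not tested.

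**Figure D4:**
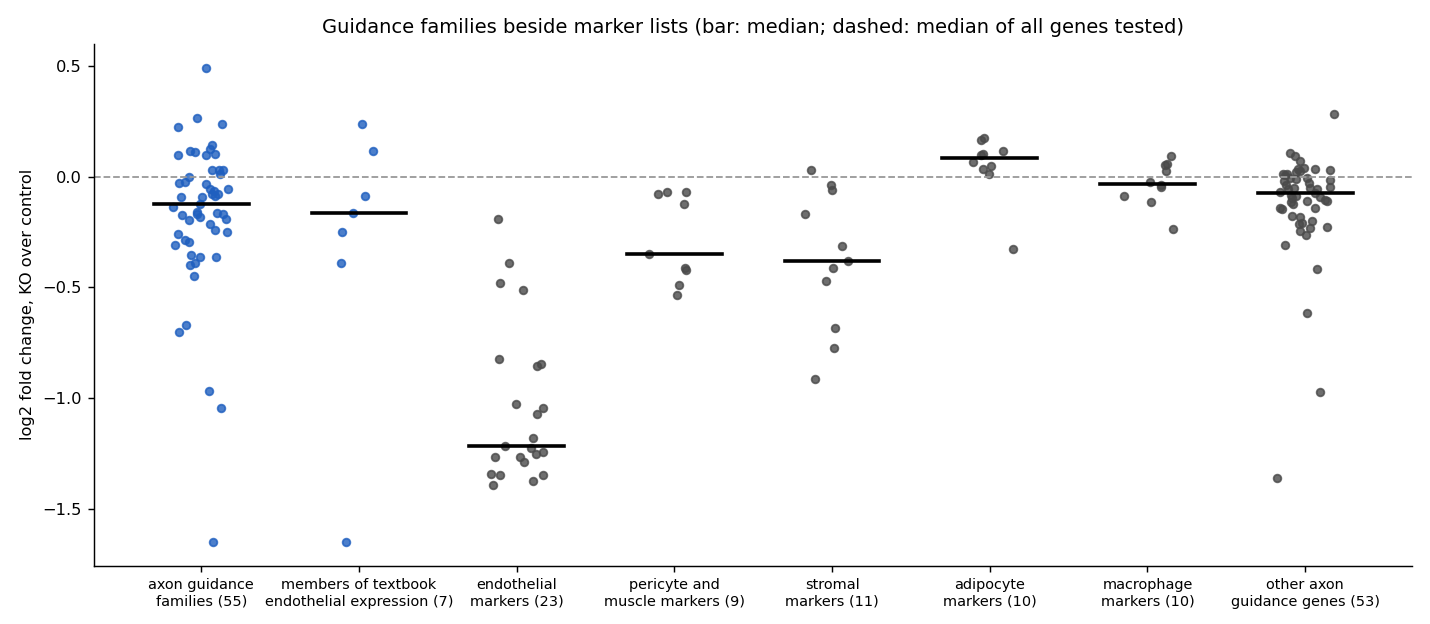
Log2 fold change of KO over control (vertical axis) of each tested gene in the families (blue) and in the other lists (grey), with the number tested in brackets, the list's median as a bar and the median of all genes dashed. The endothelial markers centre on -1.22 and the families on -0.124. Robo4, the lowest blue point at -1.65, lies below the point of every marker, but errors are not drawn and this order was not tested.

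Sema3g, a class 3 semaphorin known from endothelial cells, had the second highest level per exon length of the families, at 17.8 ± 6.08 CPM per kilobase in control cultures (SD, n = 5). Its libraries had 73.6, 71.7, 57.6, 128.8 and 72.4 CPM in control and 128.3, 84.8, 80.4, 66.1 and 78.3 CPM in the KO cultures. Control library 4 and KO library 1 reached nearly the same level, far above the others. The log2 fold change was 0.12 (95% confidence interval -0.34 to 0.57), and it ran from -0.06 without KO library 1 to 0.35 without control library 4. Sema3c, a class 3 relative, had 34.7 to 37.3 CPM in control and 31.4 to 39.2 CPM in KO libraries and a log2 fold change of -0.06. The difference between Sema3g and Sema3c moved by 0.198 with an SE of 0.265 (2-sided exact permutation test, p = 0.468).

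Sema3g was one of 13 members (23.6% of 55, against 14.7% of all genes tested) that were highest of their group in both libraries that stand apart. The others were Efnb2, Epha4, Plxna1, Plxnd1, Sema3b, Sema3d, Sema3e, Sema4a, Sema4f, Sema4g, Slit1 and Unc5b. Epha4, a receptor of both ephrin classes, had the widest spread relative to its mean of the 55 rows in either group: 0.682, 0.712, 1.50, 7.06 and 1.78 CPM in control and 8.09, 2.81, 1.31, 1.92 and 2.29 CPM in KO libraries. Its log2 fold change was 0.49 with a 95% confidence interval from -0.89 to 1.87, and it turned to -0.15 without KO library 1. Without both libraries it was 0.83. Lowest in both were 5 members (9.09%, against 12.4% of all genes), namely Ephb2, Ephb3, Robo1, Sema3a and Unc50. Since 1 of these libraries is a control and the other a KO library, the spread they add is within the groups. Without both, Robo4, Sema7a, Sema3f and Ephb6 passed with Epha2, Sema3a and Efnb1, 7 members in all, a count not set against the share of all genes in that fit.

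**Figure D5:**
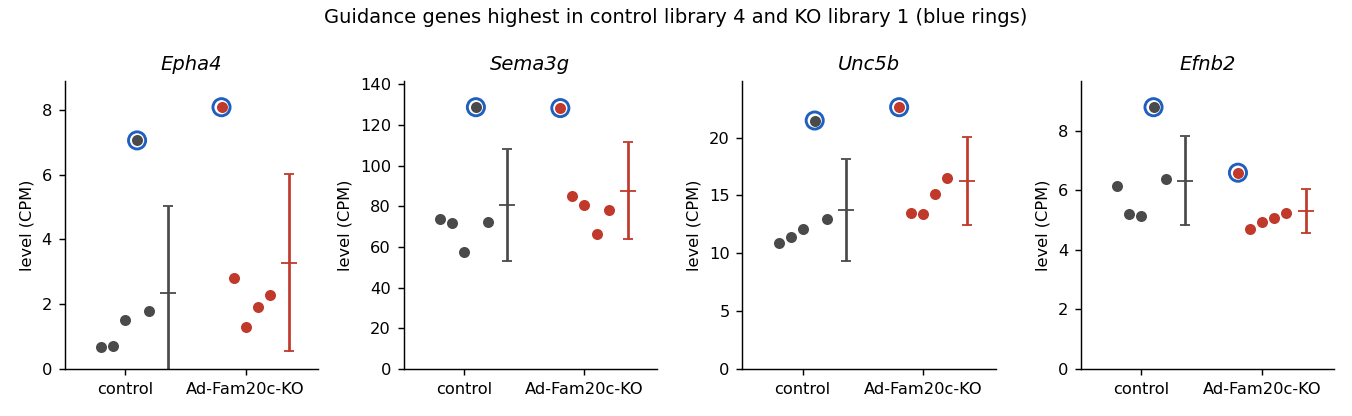
Level in CPM (vertical axes from 0) of Epha4, Sema3g, Unc5b and Efnb2 in the control (grey) and KO (red) libraries, with mean ± SD; blue rings mark control library 4 and KO library 1. Each ringed library is the highest of its group, and the lower end of the control bar of Epha4 is drawn only to 0.

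Other genes of axon guidance, a list of 59 co-receptors, adaptors and effectors outside the families, were read beside the members. Of 53 tested, 3 were lower and 0 higher, against 1.86% and 0.308% of all genes tested, and 12 were lower and 0 higher at an unadjusted p under 0.05, against 7.46% and 4.43%. The KO libraries lay wholly below the control libraries for 6 of the 53, against 2.66% of all genes. The median log2 fold change was -0.0756, against -0.000847 over all genes. Arhgef15, a gene known from endothelial cells, fell from 1.92 ± 0.335 to 0.745 ± 0.139 CPM (SD, n = 5), with a log2 fold change of -1.36 (adjusted p = 0.00134 by the edgeR quasi-likelihood test, Benjamini-Hochberg adjusted). Ablim3, an actin-binding protein, fell from 3.15 ± 0.648 to 1.61 ± 0.136 CPM (SD, n = 5), with a log2 fold change of -0.97 (adjusted p = 0.00601 by the edgeR quasi-likelihood test, Benjamini-Hochberg adjusted). Dpysl3, of the family of proteins that relay semaphorin signals to the cytoskeleton, fell from 8.54 ± 1.58 to 5.57 ± 0.830 CPM (SD, n = 5), with a log2 fold change of -0.61 (adjusted p = 0.0373 by the edgeR quasi-likelihood test, Benjamini-Hochberg adjusted). The KO libraries lay wholly below the control libraries for each of the 3. Arhgef15 and Ablim3 passed in each of the 10 fits that left out 1 library and Dpysl3 in 3 of them, those without control library 1, control library 2 or KO library 1. Dpysl3 also lost its call with the replicate number as a block.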

How the data were processed

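RNA-seq of primary differentiated adipocytes covered 5 control and 5 Ad-Fam20c–KO libraries. The paper's legend for this comparison gives a smaller n per group, and which libraries it used was not stated. Per the paper's methods, the authors aligned the read pairs to GRCm38.p6 (STAR) and assigned fragments to genes (featureCounts). The deposited values are whole-number counts whose totals differ between libraries, as raw counts do. The strand setting was not given in the sources used here, and the named library kits do not mark strand, so overlapping genes may share fragments. The labels name the build mm10. Gene positions and exon lengths are from GENCODE M21, which holds 52125 of the 56748 identifiers, 35 with the same version, so the exons counted may differ from those used for lengths.

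From the deposited counts, edgeR 4.0.16 (R 4.3.3) applied TMM after filterByExpr at a minimum count of 10 and tested KO against control by quasi-likelihood with Benjamini-Hochberg adjustment over 14270 genes at a limit of 0.05. The pair differences used log2 CPM (prior count 2) and exact permutation over 252 assignments. Alternatives were the factors of DESeq2 1.42.0 and its Wald test, upper quartile factors and other filters. Further ones were limma voom 3.58.1 with sample quality weights, a replicate block and libraries left out. The fits were tested on simulated data. The members, lists and motifs were chosen with earlier results of these data known. Named genes are members past the limit or without overlap, the highest member of each family, those of the pairs and of known endothelial expression, and listed guidance genes past the limit with Nrp1, Nrp2, Neo1 and Dcc; Sema3a, Plxnc1, Epha4, Sema3e and members given only as the end of a range were chosen after their values were seen. Libraries of a group differed by more than sampling noise (chi-square per degree of freedom at least 3.50).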

Additional observations from a re-analysis of the deposited data

Results flagged for a closer look

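Single libraries far from the rest of their group were looked for in 68 groups, each of the 34 tested named genes in control and in KO cultures, by the gap to the nearest library divided by the group's range, with a limit of 0.71 for 5 libraries. Chance gives about 5% of groups. Of the 60 groups of genes named by the rule, 3 were found, the number that chance gives. The other 8 groups hold genes chosen after their values were seen, and the 2 found there, both of Epha4, are a description only. Unc5b had 21.5 CPM in control library 4, against 10.9 to 12.9 CPM in the other control libraries (ratio 0.804). Sema3g had 128.8 CPM in control library 4, against 57.6 to 73.6 CPM (ratio 0.775). Epha4 had 7.06 CPM in control library 4, against 0.682 to 1.78 CPM (ratio 0.829), and 8.09 CPM in KO library 1, against 1.31 to 2.81 CPM (ratio 0.779). Efnb2 had 6.60 CPM in KO library 1, against 4.70 to 5.24 CPM (ratio 0.714). All 5 lie in the 2 libraries that also stand apart over all genes tested.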

How the results depend on the processing

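Robo4, Sema7a and Sema3f stayed lower in each of the 10 fits that left out 1 library and under all 8 other alternatives, and no member was called higher in any of them. The number of lower members was 7 with DESeq2, with limma voom and without both control library 4 and KO library 1, and 3 to 7 with 1 library left out (7 without control library 4). These counts, and the absence of higher members, are not set against the share of all genes called in the same fit. A higher count is thus no result about the members. Over all genes, 164 to 323 were lower with 1 library left out, the fewest without KO library 2. The number of higher genes was 125 with DESeq2, 111 with limma voom, 145 without both libraries and 19 to 119 with 1 left out. With the replicate number as a block, it was 21, 4 members were lower and Dpysl3 lost its call. The numbers showed no pairing of the libraries (correlations of deviations -0.251 to 0.263), and only number 3 correlated best with its own. So few libraries cannot exclude a pairing. The block left the pair differences as they were, and its smallest exact p, 0.0625, cannot pass.

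The sign of Plxna1 turned to 0.00265 with DESeq2 size factors, 0.00143 with no filter, 0.00284 with DESeq2's test, 0.0517 with limma voom and 0.0549 without both libraries (-0.0447 to 0.0979 with 1 left out). Neo1 turned to 0.00997 with limma voom and 0.0334 without both (-0.0470 to 0.0202), and Sema3e to 0.00829 with limma voom (-0.0752 to 0.0493). With 1 library left out, signs also turned in Sema3g (-0.0569 to 0.351), Ntn4 (-0.192 to 0.0206), Nrp2 (-0.00209 to 0.0944) and Epha4 (-0.15 to 1.47). Among pair differences, Efnb2 against Efnb1 was 0.131 without both libraries and -0.134 to 0.205 with 1 left out. Ephb4 against Ephb2 ran from -0.00605 to 0.114, Plxnd1 against Plxnb2 from -0.0266 to 0.0693 and Slit2 against Slit3 from -0.137 to 0.0173. The cause of these turns was not tested. At this depth the 16 rows not tested had at most 17 counts in a library, and Unc5b against Unc5c was not compared because Unc5c is one of them.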

Other observations

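Markers of lymphatic endothelium and of nerve-associated cells, which also express guidance receptors, were read beside the families. Of 5 lymphatic markers, 4 were tested and 0 passed in edgeR, with a median log2 fold change of -0.256. At an unadjusted p under 0.05, 2 were lower, against 7.46% of all genes tested, namely Prox1 and Reln at -0.70 and -0.47. The summed level was 56.9 to 73.9 CPM in control and 53.2 to 74.9 CPM in KO libraries. Lyve1 and Pdpn, at -0.05 and 0.05, held most of it, so the sum says little of Prox1 and Reln. Of 9 Schwann cell and neuronal markers, 7 were tested, with 1 lower and 1 higher, against 1.86% and 0.308% of all genes tested. Ngfr, a neurotrophin receptor also found on stromal cells, fell from 64.8 to 39.9 CPM on average, a log2 fold change of -0.70, and Snap25, a protein of vesicle fusion, rose from 1.07 to 1.75 CPM, a log2 fold change of 0.70. Both were named after their values were seen, and neither had overlapping groups.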
